A study of Homo sapiens with 6 samples.

Results

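FGF receptors, their ligands and the feedback genes that act on their signal were described in UM-UC-3 and 5637, 2 lines of human cells that came from bladder cancers. The set held 10 genes of 50868 listed with values, chosen by name: the receptors FGFR1, FGFR2, FGFR3 and FGFR4, the ligands FGF1 and FGF2, the ligand carrier FGFBP1, and the feedback regulators SPRY2, SPRY4 and DUSP6. RNA-seq was made from 6 libraries. In each line, cells were infected with lentivirus carrying a negative control hairpin (sh-NC) or 1 of 2 hairpins against the long non-coding RNA LNMAT1 (sh-LNMAT1#1, here hairpin #1, or sh-LNMAT1#2, here hairpin #2), and puromycin selection gave stable cells, so every library carries a hairpin vector and no uninfected cells were measured. There was 1 library per construct and line, and the 2 hairpins stand in for replicates, so the spread includes any difference between hairpins. UM-UC-3 was grown in DMEM and 5637 in RPMI medium, with serum and antibiotics in both, so that a difference between lines and one between media cannot be told apart.

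Fibroblast growth factors are secreted ligands that bind receptor tyrosine kinases together with heparan sulfate chains on the cell surface. FGFBP1 releases FGFs held in the matrix. Active receptors signal through the adaptor FRS2 to RAS and the ERK kinases, and ERK signalling raises transcription of its own inhibitors: the Sprouty proteins, which act upstream in the pathway, and DUSP6, a phosphatase that inactivates ERK. In the bladder, FGFR3 is known for activating mutations in urothelial tumours, and FGFR1 has been studied in mesenchymal-like bladder cancer cells.

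The values were FPKM, fragments scaled for transcript length and library size, and the libraries held about 19375000 to 24708000 fragments as recovered from single-exon genes. The library labelled 5637 sh-NC stood apart from the other 5637 libraries. Across the 12717 genes whose mean reached 1 FPKM, its log2 values correlated with UM-UC-3 hairpin #1 at r = 0.985. With UM-UC-3 sh-NC and hairpin #2 r was lower, at 0.922 and 0.933, and with the 5637 hairpin libraries it was 0.617 and 0.622. These values describe likeness across genes, which are not independent replicates. The epithelial marker list (10 of 10 genes found) summed to 592 and 765 FPKM in the 5637 hairpin libraries and to 20.8 to 30.1 FPKM in the other 4 libraries. EPCAM was at 0.0104 FPKM in the library labelled 5637 sh-NC. KRT19 was the largest part of the 5637 hairpin sums, at 300 and 409 FPKM. CLDN4 alone of the list did not follow, at 0.0512 and 0.0961 FPKM in the 5637 hairpin libraries and 0.058 to 0.209 elsewhere. The urothelial list (6 of 6 found) summed to 34.7 and 36.3 FPKM in the 5637 hairpin libraries and to 1.23 to 4.58 FPKM elsewhere, with UPK1B listed at 0 FPKM in all 6 libraries. For all 10 genes of the set, the library labelled 5637 sh-NC lay nearer to the UM-UC-3 mean than to the 5637 hairpin mean on the log2 scale, against 79.6% of all genes kept. It lay inside the range of the UM-UC-3 libraries for 7 of the 10, but not for FGFR1, FGF1 or FGF2. The share of all genes inside that range was not computed, so nothing is read from this count. No library was moved to another group. The lines were therefore compared between their sh-LNMAT1 (hairpin) libraries, which use neither sh-NC library, and every difference that uses the library labelled 5637 sh-NC is given as such.

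The promoter windows of a feedback gene and a ligand that read higher in UM-UC-3 and of the carrier that read higher in 5637 are shown to set side by side genes that differed in opposite directions, as the 250 bases before the first start site RefSeq lists (GRCh38.p14), written 5′ to 3′ on the gene's strand. Capitals mark matches, on either strand, to CCGGAA (the ETS core), TGANTCA (AP-1), TGACGTCA (CRE), TATAAA (the TATA motif), CACCTG (an E-box), AACNNGTT (grainyhead) or GGGCGG (the GC box). None of the 3 windows overlaps an exon of its own gene in GENCODE release 29, and exons of other genes were not checked. SPRY2 lies at chr13:80341127-80341376 (minus strand), FGF1 at chr5:142698071-142698320 (minus strand) and FGFBP1 at chr4:15938741-15938990 (minus strand).
SPRY2: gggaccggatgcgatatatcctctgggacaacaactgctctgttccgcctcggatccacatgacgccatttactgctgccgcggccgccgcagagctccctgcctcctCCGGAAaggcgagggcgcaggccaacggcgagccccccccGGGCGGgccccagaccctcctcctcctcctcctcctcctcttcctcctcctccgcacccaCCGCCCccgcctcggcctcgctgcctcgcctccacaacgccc
FGF1: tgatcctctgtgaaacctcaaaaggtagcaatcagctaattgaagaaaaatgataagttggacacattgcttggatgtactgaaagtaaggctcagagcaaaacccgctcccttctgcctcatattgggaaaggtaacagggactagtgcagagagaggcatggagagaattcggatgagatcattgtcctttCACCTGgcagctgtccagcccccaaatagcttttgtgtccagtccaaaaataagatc
FGFBP1: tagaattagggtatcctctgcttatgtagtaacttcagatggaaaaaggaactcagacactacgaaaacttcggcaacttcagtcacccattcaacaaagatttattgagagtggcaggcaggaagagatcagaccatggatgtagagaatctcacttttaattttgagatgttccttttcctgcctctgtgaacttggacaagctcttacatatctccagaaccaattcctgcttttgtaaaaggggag
The SPRY2 window held 1 ETS core and 2 GC boxes, the FGF1 window held 1 E-box, and these letters were not found in the FGFBP1 window. Over 35116 promoter windows of the same length, 14.5% held CCGGAA, 42.6% held GGGCGG, 17.5% held CACCTG, 6.57% held TGANTCA, 1.65% held TGACGTCA, 10.7% held TATAAA and 3.0% held AACNNGTT. A match is a run of letters and was not tested as a site.

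The targeted transcript, listed as LINC01296, was read in every library. It stood at 14.2 FPKM under sh-NC, 6.2 under hairpin #1 and 6.70 under hairpin #2 in UM-UC-3. The 5637 cells gave 4.70 FPKM under hairpin #1, 2.14 under hairpin #2 and 11.7 in the library labelled 5637 sh-NC. In UM-UC-3, both hairpin libraries lay below sh-NC. Both 5637 hairpin libraries lay below the library labelled 5637 sh-NC, but since that library resembles UM-UC-3, knockdown and line cannot be told apart there and the 5637 labels are not checked by it. In UM-UC-3, hairpin #1 left 0.438 and hairpin #2 left 0.474 of the sh-NC level.

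**Figure D1:**
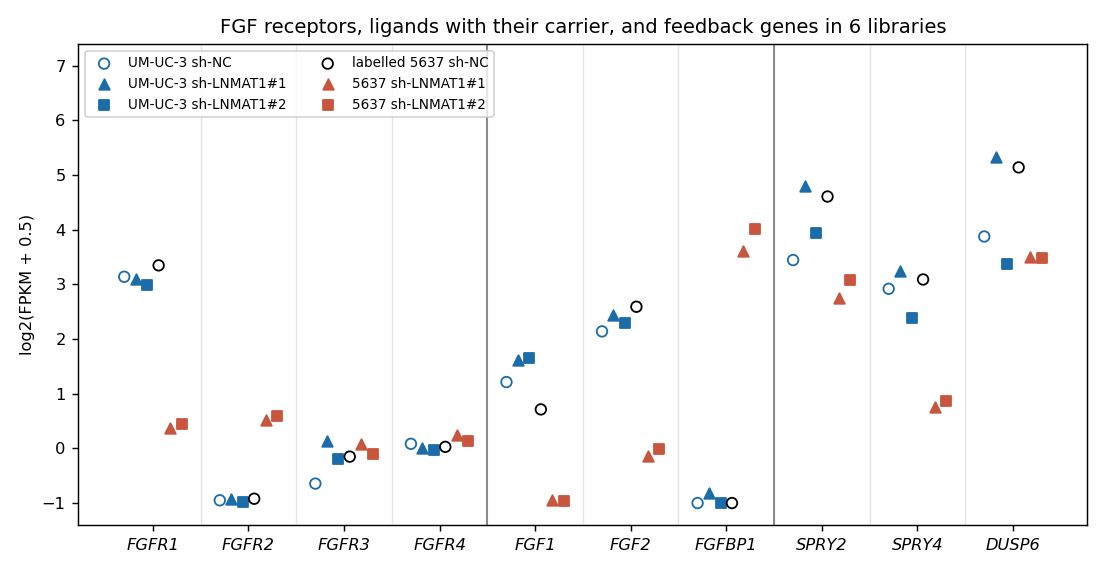
Levels of the 10 genes in each of the 6 libraries, as log2(FPKM + 0.5) on the vertical axis, with 1 symbol per library and vertical lines parting receptors, ligands with their carrier, and feedback genes. The black circle, the library labelled 5637 sh-NC, sits close to the blue UM-UC-3 symbols for FGFR1, FGF2 and FGFBP1. The red 5637 hairpin symbols are lower for FGFR1, FGF1 and FGF2 and higher for FGFR2 and FGFBP1.

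FGFR1 made up most receptor transcript in UM-UC-3, and 5637 cells with the LNMAT1 hairpins held less receptor transcript in all, shared among the 4 receptors. FGFR1 (ENSG00000077782, 8:38411138-38468834 in hg38, minus strand), which binds FGF1 and FGF2, read 8.32 FPKM with sh-NC, 8.12 with hairpin #1 and 7.47 with hairpin #2 in UM-UC-3. In 5637 it read 0.795 FPKM with hairpin #1 and 0.871 with hairpin #2, and 9.69 in the library labelled 5637 sh-NC. The 2 lowest libraries were both 5637 hairpin libraries, apart from the hairpin libraries of UM-UC-3, while the library labelled 5637 sh-NC was the highest of the 6. The mean of the 2 UM-UC-3 hairpin libraries was 9.36 times that of the 2 from 5637. The log2 difference, 5637 minus UM-UC-3, was -2.64 ± 0.20 (SE, 2 against 2 libraries, limma adjusted p = 0.0005882).

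FGFR2 (ENSG00000066468, 10:121478334-121598458, minus strand), whose epithelial isoform binds FGFs made by stroma, ran the opposite way. It stood at 0.0177 FPKM under sh-NC, 0.0284 under hairpin #1 and 0.00424 under hairpin #2 in UM-UC-3. The 5637 cells gave 0.931 FPKM under hairpin #1, 1.01 under hairpin #2 and 0.0282 in the library labelled 5637 sh-NC. Both 5637 hairpin libraries lay above every other library. Its mean over all libraries was under 1 FPKM, as were those of FGFR3 and FGFR4, so these receptors were left out of the fit; with no filter on low values, the FGFR2 difference was 1.51 ± 0.082 on the log2(FPKM + 0.5) scale (limma adjusted p = 0.01654). The FGFR2 values of UM-UC-3 hairpins #1 and #2 stand for at most 4.8 and 0.738 fragments. The size of this difference and its small SE are therefore set largely by the added 0.5. A gene-level FPKM does not show which FGFR2 isoform was read.

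FGFR3 (ENSG00000068078, 4:1793307-1808872, plus strand) read 0.14 FPKM with sh-NC, 0.592 with hairpin #1 and 0.374 with hairpin #2 in UM-UC-3. In 5637 it read 0.558 FPKM with hairpin #1 and 0.432 with hairpin #2, and 0.401 in the library labelled 5637 sh-NC. The lines overlapped, and UM-UC-3 sh-NC was the lowest library. FGFR4 (ENSG00000160867, 5:177086886-177098144, plus strand) ran from 0.482 FPKM (hairpin #2) through 0.506 (hairpin #1) to 0.56 (sh-NC) among UM-UC-3 libraries, with 0.679 (hairpin #1) and 0.603 (hairpin #2) in 5637 and 0.52 in the library labelled 5637 sh-NC. With no filter, neither differed between the lines at the threshold (limma, FGFR3 log2 difference 0.02 and adjusted p = 0.9939, FGFR4 0.20 and adjusted p = 0.4599).

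Summed over the 4 receptors, FPKM ran from 8.33 to 10.6 in the UM-UC-3 libraries and the library labelled 5637 sh-NC, and came to 2.96 and 2.92 in 5637 hairpins #1 and #2. FGFR1 was 87.8% to 92.1% of the sum in the former libraries. In 5637 hairpin #1 the sum was 26.8% FGFR1, 31.4% FGFR2, 18.8% FGFR3 and 22.9% FGFR4, and in 5637 hairpin #2 it was 29.8%, 34.7%, 14.8% and 20.6% in the same order. FGFR2 thus ranked first of the 4 in both, ahead of FGFR1 by 0.931 against 0.795 FPKM and 1.01 against 0.871 FPKM. With 2 libraries, the order of the 4 within 5637 is a description and was not tested.

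**Figure D2:**
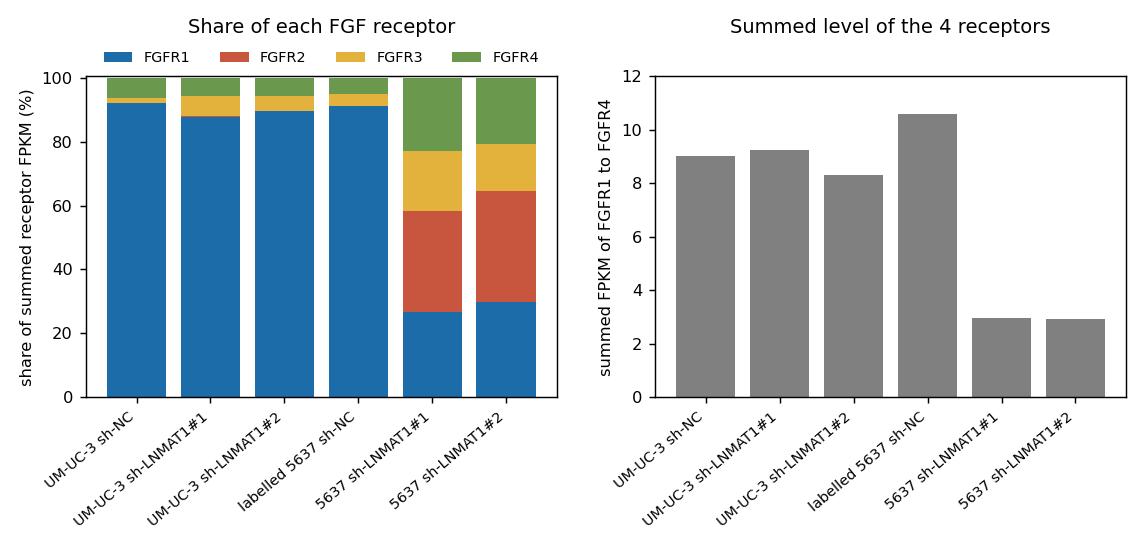
Left, share of each FGF receptor in the summed FPKM of FGFR1 to FGFR4 (percent, stacked bars, 1 bar per library), and right, the summed FPKM. FGFR1 fills 87.8% to 92.1% of 4 bars, and the 2 bars of the 5637 hairpin libraries are lower in sum and shared among all 4 receptors.

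The ligands followed FGFR1, and their carrier did not. FGF2 (ENSG00000138685, 4:122826708-122898236, plus strand), a ligand of broad receptor binding, stood at 3.91 FPKM under sh-NC, 4.94 under hairpin #1 and 4.41 under hairpin #2 in UM-UC-3. The 5637 cells gave 0.412 FPKM under hairpin #1, 0.498 under hairpin #2 and 5.53 in the library labelled 5637 sh-NC. The 5637 hairpin libraries were the lowest of the 6, the library labelled 5637 sh-NC was the highest, and the UM-UC-3 hairpin mean was 10.3 times theirs. The log2 difference was -2.44 ± 0.21 (SE, limma adjusted p = 0.000875). NUDT6, on the opposite strand, shares 804 bases (11.9%) of the FGF2 exons and read 0.35 to 0.654 FPKM over the 6 libraries, and whether counting used strand is not given in the sources used here.

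FGF1 (ENSG00000113578, 5:142592178-142698070, minus strand), which binds all FGF receptors, read 1.82 FPKM with sh-NC, 2.58 with hairpin #1 and 2.66 with hairpin #2 in UM-UC-3. In 5637 it read 0.0202 FPKM with hairpin #1 and 0.0108 with hairpin #2, and 1.14 in the library labelled 5637 sh-NC. The 2 values in the 5637 hairpin libraries are near those of single fragments, so no ratio is given. On the log2(FPKM + 0.5) scale the difference was -2.60 ± 0.19 (SE, limma adjusted p = 0.000545), a size set largely by the added 0.5, since it was -4.56 with 0.1 in its place.

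FGFBP1 (ENSG00000137440, 4:15935569-15938740, minus strand) read 11.7 FPKM (331 fragments) with hairpin #1 and 15.6 FPKM (410 fragments) with hairpin #2 in 5637. In UM-UC-3 it read 0.066 FPKM (2 fragments) with hairpin #1 and was listed at 0 with sh-NC and with hairpin #2. The library labelled 5637 sh-NC also listed it at 0. It was the highest of the 10 genes in both 5637 hairpin libraries. ETFA, a mitochondrial gene that most cells use, was also listed at 0 to 0.00457 FPKM in the other 4 libraries. It was found by its likeness to FGFBP1, so its values say nothing further on these zeros. Whether a listed 0 is a failed estimate was not tested. For the hairpin with fragments in both lines, hairpin #1, the ratio was 177 (95% exact binomial interval 48.7 to 1470, counting error only). The log2 difference between lines was 4.72 ± 0.23 (SE, limma adjusted p = 0.0002079).

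SPRY2 and SPRY4 were lower in 5637, with wider errors than the ligands, and DUSP6 was not called. SPRY2 (ENSG00000136158, 13:80335976-80340951, minus strand), a membrane-bound inhibitor of RAS activation, stood at 10.4 FPKM under sh-NC, 27.3 under hairpin #1 and 14.9 under hairpin #2 in UM-UC-3. The 5637 cells gave 6.25 FPKM under hairpin #1, 7.99 under hairpin #2 and 23.9 in the library labelled 5637 sh-NC. Both 5637 hairpin values lay below all others. The log2 difference was -1.45 ± 0.33 (SE, limma adjusted p = 0.02339), and the call was lost without 5637 hairpin #1 (adjusted p = 0.189), without 5637 hairpin #2 (adjusted p = 0.1228), with no filter on low values (adjusted p = 0.1276) and against all 3 UM-UC-3 libraries (adjusted p = 0.05804).

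SPRY4 (ENSG00000187678, 5:142310427-142326455, minus strand), a relative of SPRY2, read 7.07 FPKM with sh-NC, 8.94 with hairpin #1 and 4.73 with hairpin #2 in UM-UC-3. In 5637 it read 1.20 FPKM with hairpin #1 and 1.33 with hairpin #2, and 8.02 in the library labelled 5637 sh-NC. The 5637 hairpin libraries were again the lowest of the 6. Its log2 difference was -1.99 ± 0.33 (SE, limma adjusted p = 0.008254), with the call lost without 5637 hairpin #1 (adjusted p = 0.1147), without 5637 hairpin #2 (adjusted p = 0.09984) and with no filter (adjusted p = 0.07129).

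DUSP6 (ENSG00000139318, 12:89347232-89353271, minus strand) stood at 14.2 FPKM under sh-NC, 39.7 under hairpin #1 and 9.91 under hairpin #2 in UM-UC-3. The 5637 cells gave 10.9 FPKM under hairpin #1, 10.7 under hairpin #2 and 34.8 in the library labelled 5637 sh-NC. The lines overlapped, since UM-UC-3 hairpin #2 was the lowest library of all. The log2 difference of -0.86 ± 0.62 (SE, limma adjusted p = 0.3218) was not called. It differed with the hairpin library used and was -1.83 (adjusted p = 0.009935) without UM-UC-3 hairpin #2 and 0.12 without UM-UC-3 hairpin #1. The antisense gene AC024909.2 shares 1875 bases (40.5%) of the DUSP6 exons and read 1.87 FPKM with sh-NC, 5.67 with hairpin #1 and 1.83 with hairpin #2 in UM-UC-3, so without knowledge of the strand used in counting the DUSP6 values are uncertain.

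Of the 10 genes, 7 reached the mean of 1 FPKM needed to enter the fit; FGFBP1 did so only through the 5637 hairpin libraries, and FGFR1, FGF1 and FGF2, each under 1 FPKM there, only through the other libraries, so the filter itself favoured a difference in these 4. Of the 7, 5 were called lower in 5637, where 19.1% of all 12717 genes were, and 1 was called higher, where 18.4% of all genes were. Nothing is read from these counts, since 4 of the 6 called genes are those the filter favoured.

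The hairpin comparison within UM-UC-3 asked whether LNMAT1 knockdown moved these genes. No gene of the 7 was called by limma (adjusted p = 0.8379 to 0.9812), and of all genes 0.0% were called, while 769 had an unadjusted p under 0.05; no other tool was run. With no filter on low values, 32 genes were called higher and 400 lower, none of them in the set. With 1 sh-NC library, the test assumes that it varies like the others. By size, 0 of the 7 were at least 2-fold from sh-NC in the same direction with both hairpins, against 1.31% of all genes. FGFR1 was at 0.975 and 0.898 of sh-NC with hairpin #1 and #2, and FGF2 at 1.26 and 1.13.

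The 2 hairpins gave different values for the feedback genes in UM-UC-3. DUSP6 was 4.0 times as high with hairpin #1 as with hairpin #2, SPRY4 1.89 times and SPRY2 1.83 times, all 3 higher with hairpin #1. In 5637 the same ratios were 1.02, 0.903 and 0.782. DUSP6 was the 1 gene of the 7 at least 2-fold apart between hairpins in UM-UC-3 on the log2(FPKM + 0.5) scale, against 8.23% of all genes, and 0 were in 5637, against 1.97%. DUSP6 was 2.79 times its sh-NC level with hairpin #1 and 0.698 times with hairpin #2, on either side of the control. The library labelled 5637 sh-NC, which by its label carries the control hairpin, read 34.8 FPKM for DUSP6 and 23.9 for SPRY2. With hairpin #1 in UM-UC-3 these were 39.7 and 27.3. SPRY4 read 8.02 FPKM in that library, between UM-UC-3 sh-NC at 7.07 and hairpin #1 at 8.94. That library correlated most closely with UM-UC-3 hairpin #1 (r = 0.985), so whether high values were confined to hairpin #1 cannot be told. These are single libraries, and the difference between hairpins has no replicate check.

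**Figure D3:**
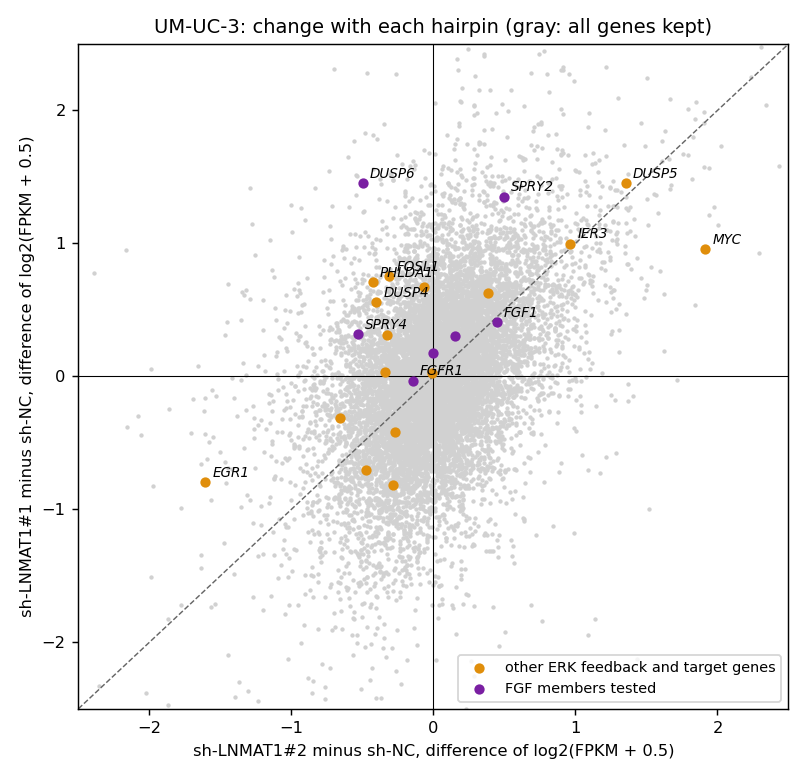
Differences from sh-NC in UM-UC-3 on the log2(FPKM + 0.5) scale, hairpin #2 on the horizontal and hairpin #1 on the vertical axis, with the 7 tested FGF genes in purple, 16 other ERK feedback and target genes in orange, and the genes kept in gray (53 lie outside the axes). The dashed line marks equal change, and DUSP6 lies far above it at -0.50 and 1.45, while DUSP5 lies near it at 1.35 and 1.45.

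Against the library labelled 5637 sh-NC, 6 of the 7 genes were called in the 5637 hairpin libraries, where 31.0% of all genes were called, and 7 were at least 2-fold apart with both hairpins, against 30.1% of all genes. The log2 differences were -2.94 for FGFR1, -1.67 for FGF1, -2.66 for FGF2, 4.81 for FGFBP1, -1.69 for SPRY2 and -2.27 for SPRY4 (limma adjusted p = 0.000613 to 0.03217), and that of DUSP6, -1.65, was not called (adjusted p = 0.1537). Without 5637 hairpin #1 or without 5637 hairpin #2, the limma calls were lost for FGF1 and FGF2 (adjusted p = 0.05122 to 0.05786) and for SPRY2 and SPRY4 (adjusted p = 0.1162 to 0.1947). With no filter the SPRY2 and SPRY4 calls were lost as well (limma adjusted p = 0.1438 and 0.08492), and without UM-UC-3 hairpin #1 or #2 DUSP6 was called (adjusted p = 0.01109 and 0.01103). All of them rest on that 1 library, whose values for these genes lay nearer to UM-UC-3, so line and knockdown cannot be told apart in them. The differences between lines share both 5637 hairpin libraries with these. Pooled over both lines with line as a covariate, none of the 7 was called (limma adjusted p = 0.5694 to 0.8051), 0.0% of all genes were called and 811 had an unadjusted p under 0.05.

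Of 16 other FGF ligands, 1 reached a mean of 1 FPKM. FGF5, a ligand known for its role in the hair cycle, read 1.65 FPKM with sh-NC, 1.75 with hairpin #1 and 2.46 with hairpin #2 in UM-UC-3. In 5637 it read 0.0316 FPKM with hairpin #1 and 0.0378 with hairpin #2, and 1.94 in the library labelled 5637 sh-NC, so that the 5637 hairpin libraries were the lowest, as for FGF1 and FGF2. Its log2 difference between lines was -2.27 ± 0.23 (SE, limma adjusted p = 0.001554), and it too entered the fit only through the libraries in which it is high. FGF9 was at 0.733 FPKM with hairpin #1 and 0.0246 with hairpin #2 in UM-UC-3, chosen here after its values were seen.

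The co-receptors and heparan sulfate genes split between lines. Of 21 listed, 15 entered the fit: 6 were higher in 5637 (18.4% of all genes were), 6 were lower (19.1% of all genes were) and 3 were not called, with a median log2 difference of 0.50 against -0.05 over all genes. SULF2, which removes sulfate groups from heparan sulfate outside the cell, was at 0.136 to 0.344 FPKM in the UM-UC-3 libraries and at 30.5 and 34.2 in 5637 hairpins #1 and #2 (log2 difference 5.48 ± 0.24, limma adjusted p = 0.0001768). Genes of the syndecan and glypican core proteins, which carry the heparan sulfate chains, differed in both directions. GPC6 was at 5.14 to 7.61 FPKM in UM-UC-3 and listed at 0 in both 5637 hairpin libraries (-3.89), SDC2 was at 2.80 to 5.79 FPKM in UM-UC-3 and at 0.00617 and 0 in the 5637 hairpin libraries (-3.34), and GPC1 was higher in 5637, at 20.3 and 23.7 against 4.81 to 5.77 FPKM (1.92). SULF2, GPC6 and SDC2 entered the fit only through the libraries in which they are high.

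**Figure D4:**
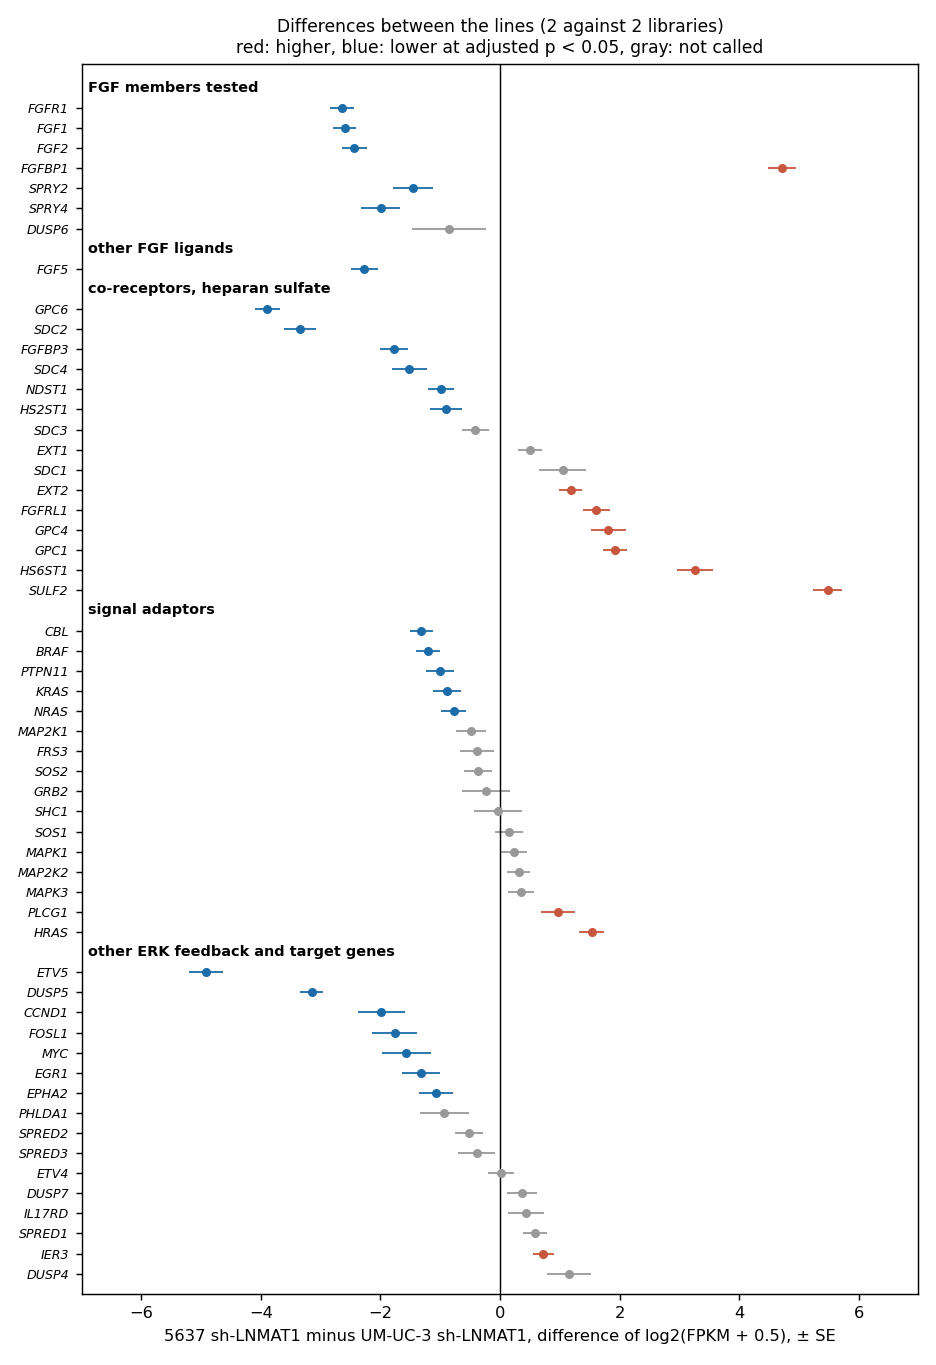
Log2 difference between the hairpin libraries of the 2 lines, 5637 minus UM-UC-3, with its SE for the 7 tested FGF genes and the tested genes of 4 pathway lists, with red for higher, blue for lower and gray for not called at the adjusted threshold. FGFBP1 and SULF2 lie at 4.72 and 5.48, ETV5 at -4.91, and DUSP6 has the widest bar of the FGF genes.

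Among 18 intracellular signal genes, 16 entered the fit, and 2 were higher in 5637, 5 lower and 9 not called, beside 18.4% higher and 19.1% lower among all genes, with a median log2 difference of -0.30. HRAS, a RAS protein, was at 6.17 and 7.31 FPKM in UM-UC-3 hairpins #1 and #2 and at 22.2 and 18.7 in 5637 (1.53 ± 0.21, limma adjusted p = 0.004659). CBL, a ubiquitin ligase that marks receptors for degradation, was lower (-1.32), and so was BRAF (-1.21). FRS2, the docking protein of FGF receptors, was under the filter, at 0.537 to 1.52 FPKM over the 6 libraries.

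Of 20 other ERK feedback and target genes, 16 entered the fit, and 7 were lower in 5637, 1 was higher and 8 were not called, beside 19.1% lower and 18.4% higher among all genes, with a median log2 difference of -0.73. ETV5, an ETS factor induced by FGF signalling, was at 27.0 and 17.1 FPKM in UM-UC-3 hairpins #1 and #2 and at 0.163 and 0.305 in 5637 (-4.91 ± 0.29, limma adjusted p = 0.0002763), and it entered the fit only through the libraries in which it is high. Its relative ETV4 was at 5.66 to 5.80 FPKM in UM-UC-3 and 6.49 and 5.20 in 5637 (0.02, adjusted p = 0.9485) and was not called. DUSP5, a nuclear ERK phosphatase, read 106 and 99.2 FPKM in UM-UC-3 and at most 12.3 in 5637 (-3.15 ± 0.20, limma adjusted p = 0.0003291), and CCND1, which encodes cyclin D1, was lower at -1.98. In UM-UC-3, DUSP5 was also above sh-NC, at 38.5 FPKM, with both hairpins, but limma did not call it (adjusted p = 0.6907). With hairpin #1 and hairpin #2 in UM-UC-3, PHLDA1 read 120 and 54.3 FPKM and FOSL1 read 111 and 52.6 FPKM. Of the 16 tested, only these 2 were at least 2-fold higher with hairpin #1 on the log2(FPKM + 0.5) scale, beside 546 of all 12717 genes. In the other direction 0 were at least 2-fold apart, beside 501 of all genes, and MYC came closest, at 70.2 and 137 FPKM. In the library labelled 5637 sh-NC, PHLDA1 and FOSL1 read 102 and 124 FPKM, also above UM-UC-3 hairpin #2. GPC1, FRS2, ETV4, PHLDA1, FOSL1, MYC and the UM-UC-3 values of DUSP5 were picked after values were seen.

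Epithelial marker sums differed between the hairpin libraries of the lines, as did the genes called above, and their part in those differences was not tested. The mesenchymal marker list (6 of 6 found) summed to 183 to 399 FPKM over the UM-UC-3 libraries, to 164 in the library labelled 5637 sh-NC, and to 122 and 118 in the other 5637 libraries, but its members went opposite ways. VIM ran from 116 to 332 FPKM in UM-UC-3 and read 3.85 and 4.14 in the 5637 hairpin libraries, ZEB1 read 0.0264 and 0.00774 and SPARC 0.0722 and 0.0634 in the latter, while FN1 ran from 0.816 to 2.27 FPKM in UM-UC-3 and made up most of the 5637 hairpin sums, at 110 and 102 FPKM. The immune list (4 of 4 found) summed to 13.0 to 31.1 FPKM in the UM-UC-3 libraries and the library labelled 5637 sh-NC and to 1.41 and 1.22 FPKM in the 5637 hairpin libraries, with CD3E listed at 0 in all 6 and PTPRC at or near 0. CD68 alone carried that sum, at 13.0 to 31.0 against 0.749 and 0.826 FPKM, and CD14 went the other way, at 0.0105 to 0.151 against 0.661 and 0.388 FPKM. The endothelial list (3 of 3 found) summed to under 1 FPKM in every library. In bulk RNA, fewer cells that express a gene and less RNA per cell cannot be told apart.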

How the data were processed

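Libraries were made from the cells' RNA with a stranded mRNA kit, per the labels; the study's methods mention removal of rRNA for its tissue samples. The authors deposited 1 table of FPKM per gene for the 6 libraries, which the submitters' processing notes tie to HISAT2 and hg38; the counting tool, its strand setting and the annotation are not given in the sources used here. Of 50869 rows, 1 had no values. FPKM were not scaled further. The 12717 genes whose mean over the 6 libraries reached 1 FPKM were tested on log2(FPKM + 0.5), so fold changes of low genes are understated, with limma 3.58.1 in R 4.3.3 (lmFit and eBayes with a trend) in a model of 4 groups with 2 residual degrees of freedom; the pooled model had 3. P-values were adjusted over all genes by Benjamini-Hochberg and called under 0.05. The labels do not say that libraries came from separate cultures, so p-values measure only the spread between these libraries. Fragments were recovered from the steps of single-exon genes. There at least 99.11% of values above 0 were within 0.02 of a whole number, with a wider margin for the largest values. Library sizes were fitted to give whole numbers, so this share is partly built in. For other genes the length used is unknown, so no count test was run. Tested on simulated data of the line difference, the fit called 60 of 100 genes changed by 1 on the log2 scale, 97 of 100 changed by 3 and 7 of 12517 unchanged genes. The simulated noise was normal and independent between libraries, with no difference between hairpins, so these rates need not hold for the measured libraries. Coordinates are those of the deposited table, and RefSeq promoter windows were matched by symbol. Python 3.11.15, numpy 2.4.6, pandas 2.3.3 and matplotlib 3.10.9 were used.

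The genes, pathway lists and marker lists were chosen with earlier results of these data known. Every gene of the set and the targeted transcript was named, with, from each pathway list, up to 3 called genes with the largest difference between lines, and for each tested gene the 2 genes of nearest profile. Others are marked as chosen after their values were seen. From the list of intracellular signal genes, 1 gene is not reported here and is left out of its counts. Alternatives were other pseudocounts, filters, scalings, fits, groupings and left-out libraries.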

Additional observations from a re-analysis of the deposited data

Results flagged for a closer look

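For 5 genes the difference between sh-LNMAT1 and sh-NC libraries was not the same in the 2 lines by a test of the interaction, 5637 minus UM-UC-3 on the log2(FPKM + 0.5) scale. It was -2.85 for FGFR1 (limma adjusted p = 0.006847), -2.09 for FGF1 (0.01496), -2.89 for FGF2 (0.007231), 4.72 for FGFBP1 (0.003486) and -2.61 for SPRY2 (0.03543). The FGF1 and FGFBP1 sizes depend largely on the added 0.5, and ran from -3.92 to -1.43 and from 3.81 to 6.72 over the alternatives. Of all genes, 18.8% were called. All 5 rest on the library labelled 5637 sh-NC, whose values for these genes lay nearer to UM-UC-3 than to the 5637 hairpin libraries. A difference in the response to knockdown and a difference between lines therefore cannot be told apart. Leaving out 5637 sh-LNMAT1#1 or #2 ended the call for 4 of them, with adjusted p = 0.09574 and 0.0884 for FGFR1, 0.07855 and 0.07852 for FGF1, 0.1086 and 0.09691 for FGF2, and 0.1801 and 0.1429 for SPRY2, and with no filter the SPRY2 call was lost as well (0.1445). SPRY4 (-2.16, adjusted p = 0.05431) and DUSP6 (-2.12, adjusted p = 0.2126) were not called; SPRY4 was called without UM-UC-3 sh-LNMAT1#1 (adjusted p = 0.04002) or #2 (0.01995), and DUSP6 without UM-UC-3 sh-LNMAT1#2 (0.01749). The alternatives for the interaction were chosen after seeing the data.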

How the results depend on the processing

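The line difference called 2341 genes higher and 2424 lower in 5637. These became 913 and 1262 with a filter of 5 FPKM, where 6250 genes were tested, 1 and 1 with 3 libraries against 3 by label, and ranged from 873 to 2619 and from 524 to 2535 when 1 library was left out, lowest without 5637 sh-LNMAT1#1. By label, 3 against 3, no gene of the FGF set was called. Otherwise FGFR1, FGF1, FGF2 and FGFBP1 kept their calls in the line difference under each alternative that tested them; the filter of 5 FPKM left out the last 3. DUSP6 ranged from -1.83 to 0.12, turned without UM-UC-3 sh-LNMAT1#1. The UM-UC-3 knockdown counts were 0 and 0, became 32 and 400 with no filter, and ranged from 0 to 2 and 0 to 1 on leaving out a library; SPRY4 ranged from -0.53 to 0.32 and DUSP6 from -0.50 to 1.45, both lower without sh-LNMAT1#1. The 5637 counts of 2024 and 1917 became 779 and 987 with the filter of 5 FPKM and ranged from 759 to 2757 and from 317 to 2667; those of the interaction, 1270 and 1118, became 417 and 466 and ranged from 581 to 2095 and from 103 to 1933. The pooled counts of 0 and 0 ranged up to 2028 and 1919 without UM-UC-3 sh-NC. On leaving out a library, the pooled difference ranged from -1.67 to 0.43 for FGF1, -2.66 to 0.23 for FGF2, -1.69 to 0.92 for SPRY2 and -1.65 to 0.48 for DUSP6, above 0 without the library labelled 5637 sh-NC.

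In UM-UC-3, 123 genes were 2-fold higher and 44 lower with both hairpins. These became 199 higher when 0.1 was added, 78 and 27 when 1 was added, 74 and 20 with the filter of 5 FPKM, 514 and 287 at 1.5-fold, 658 and 633 with sh-LNMAT1#1 alone, and 237 and 169 with sh-LNMAT1#2 alone. In 5637, 2020 and 1811 became 831 and 946 with the filter of 5 FPKM and 3168 and 3187 at 1.5-fold. With hairpin number as a replicate block, the line difference called 2502 and 2629 genes and changed no call of the FGF set; the labels do not pair the libraries, and deviations of libraries with the same hairpin correlated at 0.03 over 12717 genes.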

Other observations

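For each tested gene, the genes of nearest profile over the 6 libraries were found by Euclidean distance between mean-centred log2(FPKM + 0.5) values. DUSP6 lay nearest to TXNIP (distance 0.21), which inhibits thioredoxin and read 19.3 FPKM with sh-NC, 54.8 with hairpin #1 and 14.8 with hairpin #2 in UM-UC-3, and to C9orf72 (0.30). FGFR1 lay nearest to GALC (0.19), a lysosomal enzyme, and NKD2 (0.25), and FGF2 to PCBD1 (0.19) and TMEM230 (0.25). FGFBP1 lay nearest to CORO2A (0.12) and ETFA (0.19), SPRY2 to LINC00493 (0.27) and CAB39L (0.30), SPRY4 to ARHGEF2 (0.30) and STXBP6 (0.34), and FGF1 to SUSD5 (0.40) and ARC (0.46). With 6 libraries, in which the 2 from 5637 sh-LNMAT1 stand apart, such likeness is a description. ETFA, a mitochondrial gene used by most cells, was listed at 0 in the library labelled 5637 sh-NC and with hairpin #1 in UM-UC-3, and read 11.3 FPKM with hairpin #1 in 5637. AC087623.1, which is antisense to FGFR1 and shares 156 bases (1.13%) of its exons, ran from 4.70 to 12.2 FPKM in UM-UC-3 and stood at 26.6 in the library labelled 5637 sh-NC. In 5637 hairpins #1 and #2 it read 1.62 and 0.773 FPKM. The strand used in counting is not known, and its part in the FGFR1 values was not tested.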
